A study of Mus musculus with 16 samples.

Results

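The genes for T cells and intraepithelial lymphocytes described here were Cd3d, Cd3e, Cd3g, Cd4, Cd8a, Cd8b1, Gzma, Gzmb, Itgae and Il2rb. They were chosen by name as markers of these cells and make up 10 of the 21965 genes of the count table. All 10 passed the filter on low counts that left 13811 genes for testing. RNA-seq was performed on the terminal ileum of 16 male C57BL/6 mice, in 1 library per mouse: 4 wild-type pair-fed (WT PF), 4 fat-1 PF, 3 WT ethanol-fed (WT EtOH) and 5 fat-1 EtOH animals. Mice of the fat-1 genotype were heterozygous for a transgene that encodes a C. elegans n3 fatty acid desaturase, is active in all tissues and converts n6 to n3 polyunsaturated fatty acids, and the WT mice were littermates without it. The transgene itself is not a mouse gene, so that the genotypes were not checked against the counts. All mice were 8 to 10 weeks old at the start and received a liquid Lieber-DeCarli diet. In the EtOH groups its ethanol was raised in steps to 6% (v/v), which was kept for the last 3 weeks, and in the PF groups isocaloric maltose dextrin took its place (0% ethanol). The libraries were numbered 1 to 8 in PF and 9 to 16 in EtOH mice, so that library order and diet cannot be told apart.

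Intraepithelial lymphocytes are T cells that lie between the epithelial cells of the gut. Most of them in the small intestine carry CD8, often as a homodimer of CD8 alpha chains, hold granzymes ready in their granules, and are kept in place by the integrin CD103 and alive by IL-15 from the epithelium. T cells of the lamina propria, Peyer's patches and other lymphoid tissue are more often CD4+ or carry the CD8 alpha beta heterodimer. Cd3d, Cd3e and Cd3g encode the CD3 chains that carry the signal of the T cell receptor. Cd4, Cd8a and Cd8b1 encode the co-receptors, Gzma and Gzmb encode granzymes A and B, Itgae encodes the alpha chain of CD103, and Il2rb encodes the beta chain shared by the receptors of IL-2 and IL-15. In a bulk sample, fewer cells of a type and less RNA per cell cannot be told apart.

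The 10 genes lie on 6 chromosomes in the GRCm38 annotation. Cd3g and Cd3d lie head to head on chromosome 9, with their starts 1355 bases apart, and Cd3e is the next of the 3 CD3 genes there. The promoter table of RefSeq (GRCm38.p6) held 6 of the 10 members. The 150 bases upstream of the RefSeq start are shown for both granzymes, which fell together in the comparison described further on, and for the 2 CD3 genes with a match to one of the motifs below, which did not pass in it. Capitals mark the core of the RUNX motif (TGTGGT) and the core of the ETS motif (GGAAG), searched on both strands, where the letters of a motif on the other strand read as ACCACA or CTTCC.
Gzma, chr13:113100982-113101131, minus strand: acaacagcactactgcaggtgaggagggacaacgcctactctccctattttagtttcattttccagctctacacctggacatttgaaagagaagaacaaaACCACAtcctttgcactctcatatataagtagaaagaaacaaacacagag
Gzmb, chr14:56262335-56262484, minus strand: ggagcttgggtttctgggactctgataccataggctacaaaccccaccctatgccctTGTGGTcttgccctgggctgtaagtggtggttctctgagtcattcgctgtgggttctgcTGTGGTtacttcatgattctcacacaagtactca
Cd3d, chr9:44981636-44981785, plus strand: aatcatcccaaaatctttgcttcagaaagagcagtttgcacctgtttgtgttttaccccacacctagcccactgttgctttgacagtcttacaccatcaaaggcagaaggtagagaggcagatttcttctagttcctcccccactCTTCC
Cd3e, chr9:45009612-45009761, minus strand: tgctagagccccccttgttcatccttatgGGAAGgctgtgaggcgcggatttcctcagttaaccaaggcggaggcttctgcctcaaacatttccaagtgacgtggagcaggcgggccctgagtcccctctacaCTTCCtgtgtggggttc
The RUNX core occurred 1 time in the Gzma window and 2 times in that of Gzmb, and in none of the windows of Cd3d, Cd3e, Cd3g and Cd8a, the other members in the table. Of the 32475 promoter windows of this length in the table, 8.28% hold it. The ETS core occurred 1 time in the Cd3d window and 2 times in that of Cd3e, and 0 times in those of Cd3g, Cd8a, Gzma and Gzmb, and 47.6% of all windows hold it. These are matches of letters, and binding was not measured.

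Levels are given as CPM, which are counts per 1000000 of the library size after TMM scaling. Between 8422645 and 11438539 reads were counted per library, and 3 counts were 0.246 to 0.421 CPM. After TMM scaling the library sizes were 7123784 to 12193569. The scaled size was below the counts in every fat-1 PF library and above them in every fat-1 EtOH library. Several libraries stood apart from the rest of their group before any comparison of the members. The fat-1 EtOH replicate 5 had a summed level of 932 CPM over 14 B cell markers, against 11.2 to 197 CPM in the other 15 libraries. Both fat-1 EtOH replicate 3 and replicate 4 had summed levels of 16000 and 17500 CPM over the large intestine markers, and WT EtOH replicate 2 had 5980 CPM, while the other 13 libraries had 39.3 to 214 CPM. These replicates 3 and 4 were also low in the 6 genes of ileal bile acid handling, at 1080 and 2060 CPM. Lowest of all in these genes were fat-1 PF replicates 2 and 4, at 491 and 439 CPM, and the highest in the proximal small intestine markers, at 79800 and 82000 CPM. The other 12 libraries had 2500 to 8300 CPM in the ileal genes. Markers of the ileum and of other gut segments were thus at unequal levels among the 16 libraries, and the part of these features in the results below was not tested.

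**Figure D1:**
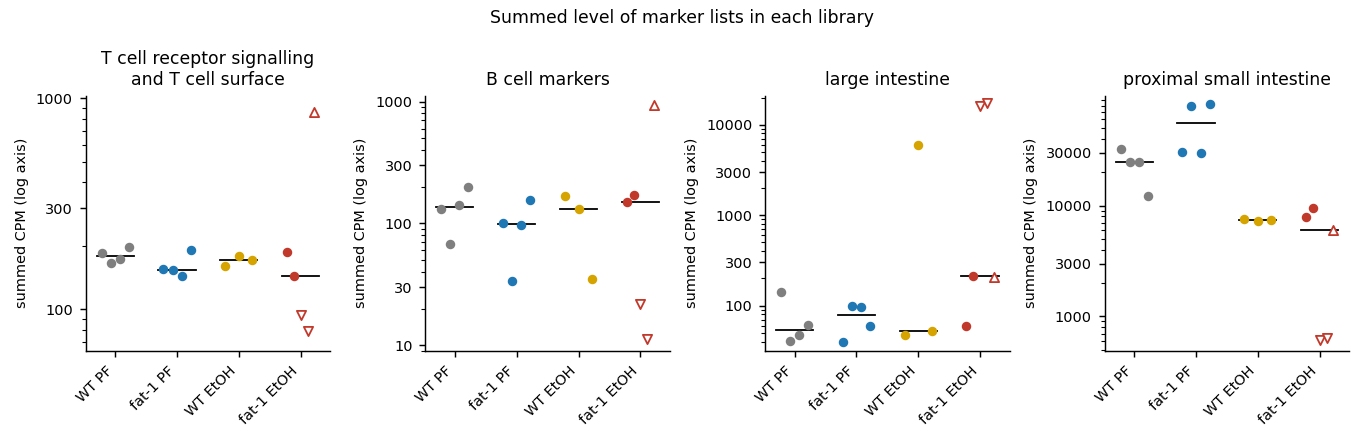
Summed CPM (log axis) of 4 marker lists in each of the 16 libraries, by group, with the group median as a line. Open triangles are fat-1 EtOH replicates 3 and 4 (pointing down) and 5 (pointing up). Replicate 5 reaches 856 CPM in the T cell list and 932 CPM in the B cell markers, and replicates 3 and 4 lead the large intestine markers at 16000 and 17500 CPM.

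Granzyme A was the most abundant member per exon length in the control mice. In WT PF mice its level was 61.2 ± 9.81 CPM per kb (SD, n = 4), followed by Gzmb at 13.5 ± 1.62 CPM per kb, and the ranges of these did not overlap with each other or with the next gene. Cd8a (4.13 ± 0.321), Itgae (3.25 ± 0.498) and Cd3g (3.24 ± 0.253 CPM per kb) came next, and their ranges overlapped between neighbours in this order. Il2rb stood at 2.21 ± 0.135 CPM per kb and did not overlap with the genes beside it. Cd3d (1.79 ± 0.29), Cd3e (1.77 ± 0.331) and Cd4 (1.57 ± 0.219 CPM per kb) overlapped in turn. Cd8b1, the beta chain of CD8, was the lowest at 0.423 ± 0.184 CPM per kb, from 3 to 9 counts per library. In fat-1 PF mice the first 3 places were the same, with 71.2 ± 18.9 CPM per kb for Gzma. In fat-1 EtOH mice the range of every member overlapped with that of the next, since their libraries held both the highest and the lowest values of most members.

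Both diets and genotypes were compared to see how EtOH feeding and endogenous n3 enrichment bear on the ileum. In fat-1 mice, the granzymes were lower with EtOH, and the other 8 members did not pass the test. Gzma was 3.15-fold lower in fat-1 EtOH than in fat-1 PF mice and Gzmb was 2.57-fold lower. By the quasi-likelihood test of edgeR, with p-values adjusted by Benjamini-Hochberg over 13811 genes, 2 of 10 members were called at an adjusted p of 0.05 or less, both lower. Of all genes tested, 37.4% were called in this comparison, 18.8% as lower in EtOH, so that 2 of 10 is near the share of all genes. An unadjusted p under 0.05 was reached by 3 of 10 members and by 47.9% of all genes. The median log2 fold change over the 10 members was -0.11, against 0.05 over all genes.

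The CPM of Gzma, a serine protease of cytotoxic granules, were 49.0, 82.7, 63.7 and 91.2 in fat-1 PF replicates 1 to 4. In fat-1 EtOH replicates 1 to 5 they were 46.2, 15.8, 7.30, 7.67 and 36.9. Every fat-1 EtOH mouse was thus below every fat-1 PF mouse, with replicates 3 and 4 the lowest of all 16, whereas 24% of all genes tested also had no overlap between these groups. The log2 fold change was -1.65 (SE 0.47, edgeR adjusted p = 0.0137). In WT PF mice the CPM were 69.7, 66.8, 62.1 and 47.5, and in WT EtOH mice 26.2, 40.0 and 56.3. Here replicate 3 of the EtOH mice lay within the range of the PF mice, and the log2 fold change of -0.59 (SE 0.53) was not called (edgeR adjusted p = 0.644). The study itself named Gzma from these samples, so that its fall is no independent evidence.

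Gzmb encodes the granzyme that cleaves caspases in target cells. Its CPM were 10.7, 27.8, 20.8 and 22.8 in fat-1 PF and 17.6, 6.21, 2.71, 2.77 and 10.6 in fat-1 EtOH replicates. Replicate 1 of the EtOH mice overlapped with the PF mice, of which replicate 1 was the lowest, and the log2 fold change was -1.36 (SE 0.46, edgeR adjusted p = 0.0302). In WT mice the CPM were 20.1, 19.8, 16 and 21.4 with PF and 8.15, 11.2 and 13.7 with EtOH. All 3 EtOH mice lay below all 4 PF mice, but the log2 fold change of -0.81 (SE 0.52) did not pass the test over all genes (edgeR adjusted p = 0.497). The call of Gzmb in fat-1 mice was lost when any one of fat-1 EtOH replicates 2, 3 and 4 or fat-1 PF replicates 2, 3 and 4 was left out. That of Gzma was kept in each of these fits, with -2.07 to -1.42. In a fit of the 2 groups alone neither granzyme was called, at -1.63 for Gzma (edgeR adjusted p = 0.0611) and -1.34 for Gzmb (edgeR adjusted p = 0.108). With limma voom Gzma was called (-1.58) and Gzmb was not (-1.15, limma voom adjusted p = 0.0559).

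The CD3 genes went both ways within the fat-1 EtOH group. Cd3e stood at 4.24, 7.02, 6.42 and 7.98 CPM in fat-1 PF mice and at 6.27, 3.83, 1.64, 1.43 and 21.8 CPM in fat-1 EtOH mice. Cd3g stood at 7.42, 12.5, 8.88 and 11.7 CPM with PF and at 7.41, 4.93, 2.21, 3.39 and 27.0 CPM with EtOH. Cd3d stood at 3.5, 4.63, 4.10 and 5.4 CPM with PF and at 3.52, 2.47, 1.39, 1.70 and 21 CPM with EtOH. Replicate 5 was the highest and replicates 3 and 4 the lowest of all 16 libraries for each of these 3 genes. The log2 fold changes of Cd3d, Cd3e and Cd3g were 0.45 (SE 0.66), 0.13 (SE 0.62) and -0.17 (SE 0.55), and none was called.

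**Figure D2:**
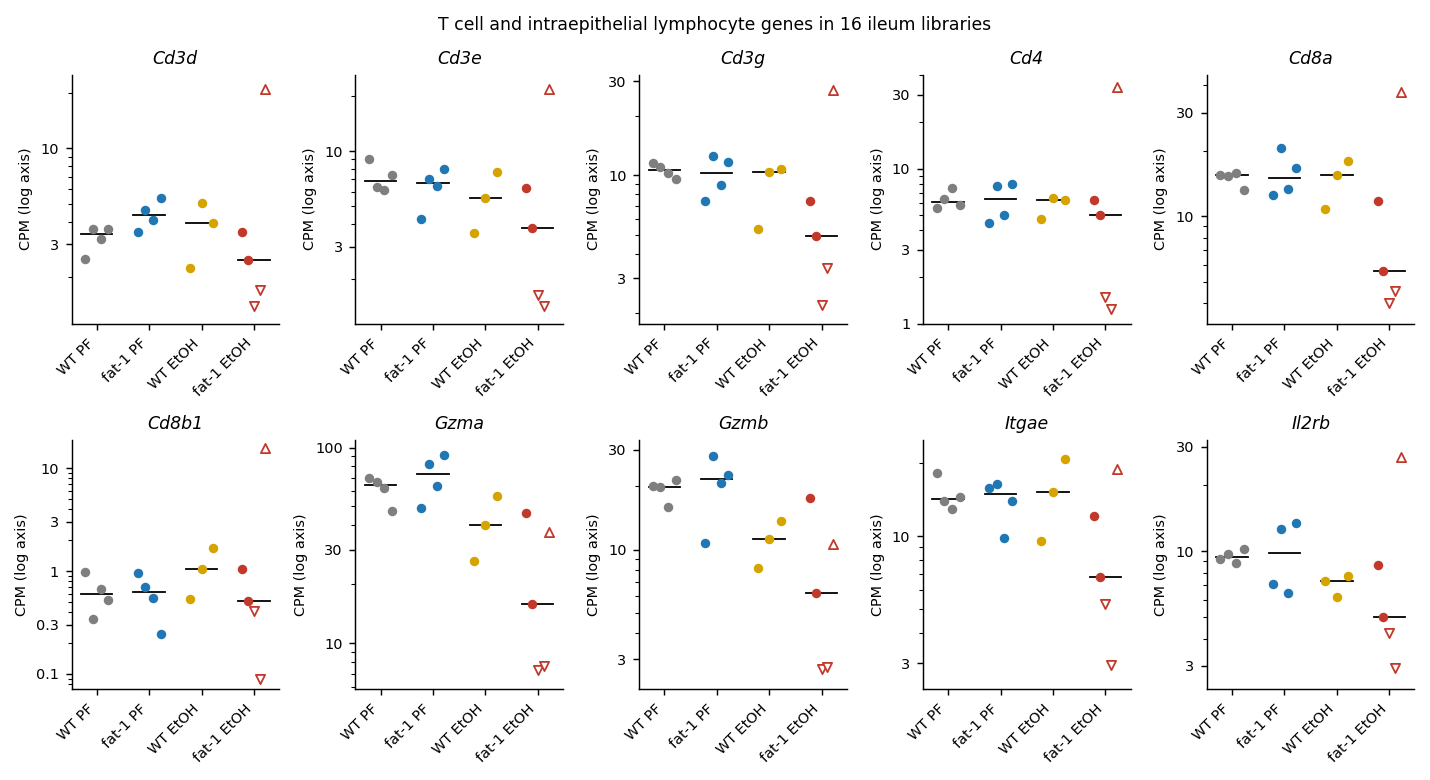
CPM (log axis) of the 10 members in each library, by group, with the group median as a line. Open triangles are fat-1 EtOH replicates 3 and 4 (pointing down) and 5 (pointing up), which hold the lowest and the highest values of Cd3e, Cd3g, Cd3d, Cd4 and Cd8a, while replicate 5 lies at 36.9 CPM of Gzma, below all fat-1 PF mice.

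Of the co-receptors, Cd4 and Cd8a followed the CD3 genes, while Cd8b1, read from few counts, did so only in part. Cd4, the co-receptor of helper and regulatory T cells that macrophages and dendritic cells can also hold, had 4.45, 7.72, 5.06 and 7.98 CPM in fat-1 PF mice. In fat-1 EtOH mice it had 6.27, 5.02, 1.48, 1.25 and 33.8 CPM, and the log2 fold change was 0.60 (SE 0.72). Cd8a, the CD8 chain that intraepithelial and other CD8+ T cells share, had 12.6, 20.6, 13.4 and 16.7 CPM with PF and 11.8, 5.61, 4.02, 4.55 and 37.4 CPM with EtOH. Its log2 fold change was -0.32 (SE 0.53). For both genes 4 of the 5 EtOH mice lay at or below the median of the PF mice, and replicate 5 lay above every PF mouse. Cd8b1 had 0.954, 0.702, 0.547 and 0.245 CPM with PF and 1.05, 0.510, 0.410, 0.0892 and 15.7 CPM with EtOH, which is 1 to 11 counts except for the 183 counts of replicate 5. Its log2 fold change of 2.50 (SE 1.16, unadjusted p = 0.0495) did not pass adjustment (edgeR adjusted p = 0.104) and became -0.26 (SE 0.61) without replicate 5.

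Itgae had 15.8, 16.4, 9.84 and 13.9 CPM in fat-1 PF and 12.1, 6.80, 5.25, 2.94 and 18.9 CPM in fat-1 EtOH mice. Il2rb had 7.10, 12.6, 6.42 and 13.5 CPM with PF and 8.65, 5.02, 4.26, 2.94 and 26.9 CPM with EtOH. Replicate 5 exceeded all PF mice for both genes and replicates 2, 3 and 4 lay below them all. The log2 fold changes, -0.61 (SE 0.41) for Itgae and -0.05 (SE 0.51) for Il2rb, were not called.

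Leaving out libraries moved the count of calls from 0 to 7. Without fat-1 EtOH replicate 5, 7 of 10 members were called, all lower with EtOH, where 37.2% of all genes were called and 17.9% as lower. The median log2 fold change of the members was then -0.99. For most members replicate 5 was the highest mouse of its group, so that leaving it out lowers the group by itself. These calls are thus no independent support for a fall. The 7 were Gzma (-1.88, SE 0.50), Gzmb (-1.48, SE 0.50), Cd8a (-1.27, SE 0.29), Cd3g (-1.16, SE 0.32), Itgae (-1.03, SE 0.34), Cd3d (-0.94, SE 0.31) and Il2rb (-0.91, SE 0.30). Cd3e (-0.95, SE 0.40), Cd4 (-0.83, SE 0.42) and Cd8b1 were not called. Without replicates 3 and 4 instead, Gzma (-1.09, SE 0.34) was called lower and Cd8b1 (3.2, SE 0.97) higher, and Gzmb (-0.81, SE 0.33) was not called, where 30.8% of all genes were. Without replicates 3, 4 and 5, which leaves 2 fat-1 EtOH mice, 0 of 10 members were called, where 17.9% of all genes were, 3 had an unadjusted p under 0.05, and Gzma stood at -1.18 (SE 0.42, edgeR adjusted p = 0.073). The calls rested on the control mice as well. Without fat-1 PF replicates 2 and 4, which were the highest in the proximal small intestine markers and leave 2 mice in their group, 0 of 10 members were called, where 13.9% of all genes were. Gzma (-1.30, SE 0.59, edgeR adjusted p = 0.139) was then the 1 member with an unadjusted p under 0.05, and Gzmb stood at -0.97 (SE 0.58, edgeR adjusted p = 0.244).

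**Figure D3:**
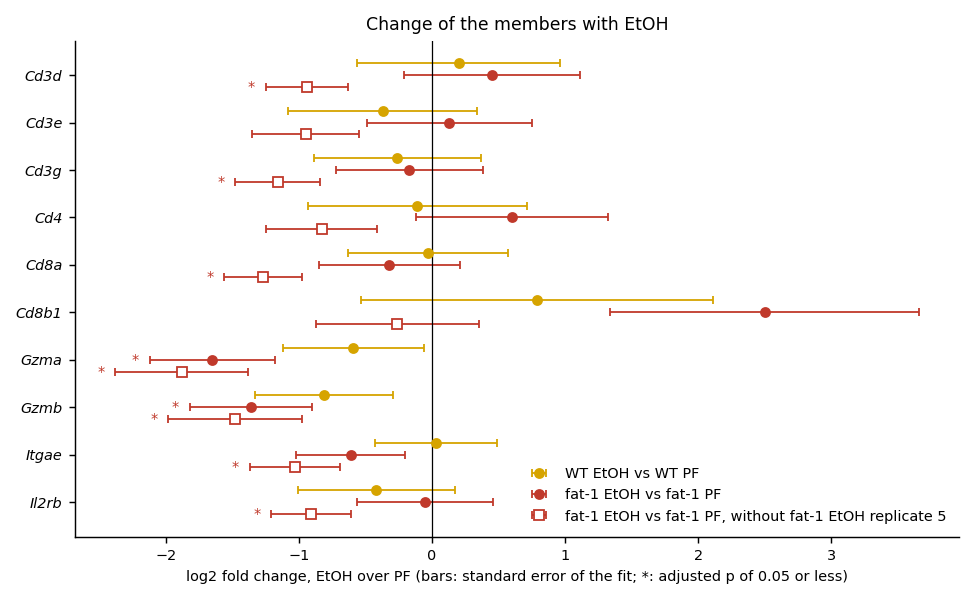
Log2 fold change of each member, EtOH over PF, with the standard error of the fit, in WT mice, in fat-1 mice and in fat-1 mice without fat-1 EtOH replicate 5. Stars mark an adjusted p of 0.05 or less: Gzma (-1.65) and Gzmb (-1.36) with all mice, and 7 members without replicate 5. This replicate was the highest mouse of its group for most members, so that leaving it out lowers the group by itself.

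In WT mice, 0 of 10 members were called between EtOH and PF with edgeR, where 0.0796% of all genes were. At an unadjusted p under 0.05 there were 0 members, against 14.1% of all genes. The groups did not overlap for Gzmb and Il2rb, both lower with EtOH, where 24.3% of all genes had no overlap. Il2rb had 9.18, 9.73, 8.89 and 10.2 CPM in WT PF and 7.34, 6.19 and 7.73 CPM in WT EtOH mice, a log2 fold change of -0.42 (SE 0.59). The other members changed by -0.59 (Gzma) to 0.79 (Cd8b1, SE 1.32) on the log2 scale. Cd8a lay at 13.3 to 15.9 CPM with PF and 10.8 to 17.9 CPM with EtOH, and Itgae at 12.9 to 18.1 and 9.58 to 20.7 CPM, so that the EtOH mice spread to both sides of the PF mice. Gzmb passed in 2 of the alternative fits of this comparison, limma voom (-0.92) and a fit of the 2 groups alone (-0.80). Both fits called many more of all genes than the main fit did. With limma voom these were 2853 genes, against 11 in the main fit, so that the call of Gzmb does not stand out there. The fit of all 4 groups takes 1 estimate of the spread from groups that include the fat-1 EtOH mice.

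Averaged over both genotypes, Gzma was 2.18-fold lower with EtOH (log2 fold change -1.12, SE 0.36, edgeR adjusted p = 0.0253) and Gzmb was 2.12-fold lower (-1.09, SE 0.35, edgeR adjusted p = 0.0264). These were 2 of 10 members, both lower, where 35.9% of all genes were called and 17.6% as lower. Both calls were lost without WT EtOH replicate 1 or 2, and Gzmb also without fat-1 PF replicate 2. Both were kept without fat-1 EtOH replicates 3, 4 and 5, where 29.1% of all genes were called, with -0.88 (SE 0.27) for Gzma and -0.78 (SE 0.26) for Gzmb. Without fat-1 EtOH replicate 5 alone, 5 members were called, where 36.7% of all genes were. These were Gzma, Gzmb, Cd3g, Cd8a and Il2rb, all lower. Without fat-1 PF replicates 2 and 4 neither granzyme was called, at -0.94 for Gzma (edgeR adjusted p = 0.108) and -0.89 for Gzmb (edgeR adjusted p = 0.117), where 23.9% of all genes were called.

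Between genotypes no member was called on either diet. In fat-1 PF against WT PF mice 0 of 10 members were called, where 0% of all genes were, and 0 had an unadjusted p under 0.05 (12.7% of all genes). Log2 fold changes ran from -0.17 (Cd3e, SE 0.66) to 0.44 (Cd3d, SE 0.71), and the groups overlapped for all 10, where 6.86% of all genes had no overlap. In fat-1 EtOH against WT EtOH mice 0 of 10 were called, where 0.00724% of all genes were, and 0 had an unadjusted p under 0.05 (4.86% of all genes). The changes ran from -0.85 (Gzma, SE 0.50) to 1.69 (Cd8b1, SE 1.17), and all 10 overlapped, where 2.45% of all genes did not. The interaction of genotype and diet asks whether EtOH acted unequally in the genotypes, and in it 0 of 10 members were called, where 0% of all genes were, and 0 had an unadjusted p under 0.05 (8.26% of all genes). The interaction was -1.06 (SE 0.70, edgeR adjusted p = 0.627) for Gzma and -0.56 (SE 0.69, edgeR adjusted p = 0.781) for Gzmb, so that a larger fall in fat-1 than in WT mice was not shown for either granzyme.

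Members were also set against each other within each library. The ratios are printed as measured, whereas the tests and the plot of ratios used their log2 values after 0.5 CPM had been added to both sides, an addition that weighs most on Cd8b1. The ratio of Gzma to the summed CPM of Cd3d, Cd3e and Cd3g was 3.23, 3.42, 3.28 and 3.64 in fat-1 PF mice. In fat-1 EtOH mice it was 2.69, 1.41, 1.39, 1.18 and 0.528. All 5 EtOH mice lay below all PF mice, replicates 3 and 4 lay beside replicate 2, and replicate 5 was the lowest of all 16. The mean log2 ratio was 1.41 lower with EtOH, for which the exact two-sided permutation p was 0.0159, the smallest that 5 against 4 mice can give, and 0.19 after adjustment over the 24 ratio tests. In WT mice the ratio was 3.02, 3.19, 3.16 and 2.31 with PF and 2.34, 1.91 and 2.52 with EtOH, and the groups overlapped (exact permutation p = 0.171, smallest possible 0.0571). Fat-1 PF mice lay above WT PF mice without overlap, by 0.23 on the log2 scale (exact permutation p = 0.0286, the smallest possible, 0.229 adjusted).

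The ratio of Gzmb to CD3 was 0.706, 1.15, 1.07 and 0.912 in fat-1 PF mice and 1.02, 0.553, 0.516, 0.425 and 0.152 in fat-1 EtOH mice. All EtOH mice but replicate 1 lay below all PF mice, with a mean log2 difference of -1.0 (exact permutation p = 0.0476, 0.274 adjusted). In WT mice it was 0.872, 0.946, 0.814 and 1.04 with PF and 0.728, 0.535 and 0.613 with EtOH, which did not overlap (-0.54, exact permutation p = 0.0571, the smallest possible, 0.274 adjusted). Adjusted over the 24 tests, 0 of the ratios passed, and the smallest adjusted value was 0.19.

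The co-receptors were compared in the same way. In fat-1 EtOH replicate 5 the Cd8b1 to Cd8a ratio was 0.419, against 0.0147 to 0.102 in the other 15 libraries. With 0.5 CPM added, the fat-1 EtOH mice lay above the fat-1 PF mice without overlap (1.45 higher on the log2 scale, exact permutation p = 0.0159, 0.19 adjusted). Without this addition the groups overlapped, as replicate 4 of the EtOH mice, at 0.0196, lay below 3 of the 4 PF mice (1.39 higher, exact permutation p = 0.159, 0.457 adjusted), so that no separation of the groups is drawn from this ratio. Outside replicate 5 the Cd8b1 values were 11 counts or fewer in these mice. The Cd4 to Cd8a ratio was 0.894 in fat-1 EtOH replicate 2 and 0.904 in replicate 5, and 0.275 to 0.532 in all other libraries. For the ratios of Itgae and Il2rb to CD3, the smallest exact permutation p over the 4 comparisons was 0.114.

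**Figure D4:**
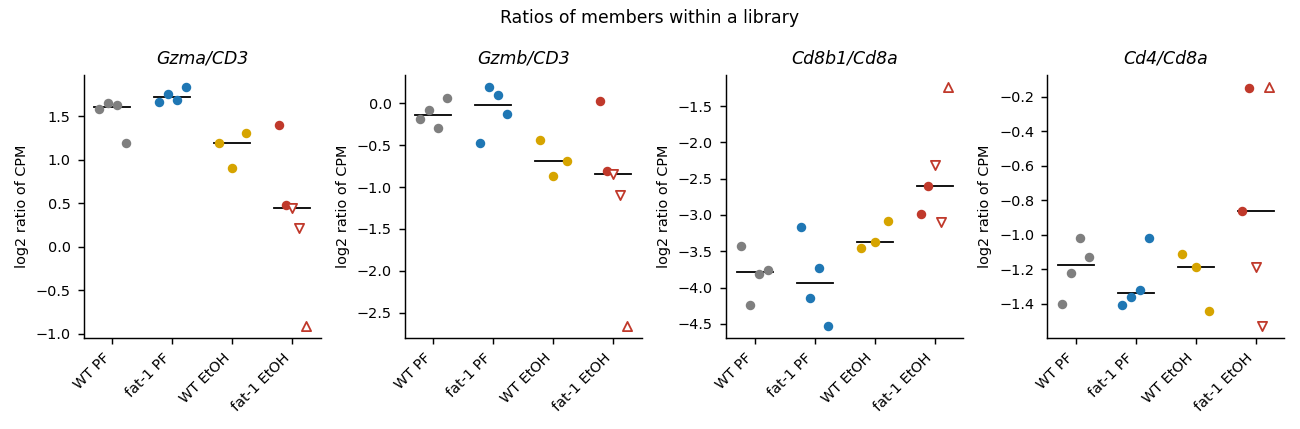
Log2 ratios of members within each library, by group, with the group median as a line (CD3 is the sum of Cd3d, Cd3e and Cd3g, and 0.5 CPM was added to both sides). Open triangles are fat-1 EtOH replicates 3 and 4 (pointing down) and 5 (pointing up), and replicate 5 is lowest in Gzma/CD3 (-0.91) and highest in Cd8b1/Cd8a (-1.23).

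The genes beside the members were read from lists of the pathway. Of 25 tested genes of T cell receptor signalling and the T cell surface, 1 was called higher and 1 lower in fat-1 EtOH against fat-1 PF mice, where 37.4% of all genes were called, with a median log2 fold change of 0.98. These were Thy1 (1.15, SE 0.40, edgeR adjusted p = 0.0353), a surface protein that stromal cells also carry, and Cd7 (-1.01, SE 0.33, edgeR adjusted p = 0.0278), which intraepithelial lymphocytes express. Thy1 reached 36.9 CPM in replicate 5 and its call was lost without it (0.53, SE 0.20, edgeR adjusted p = 0.0507). Cd247, the zeta chain of the receptor (0.95, SE 0.87), and Lck, the kinase bound to CD4 and CD8 (0.67, SE 0.58), were not called. Without replicate 5, 0 of 24 genes of this list were called higher and 2 lower, with a median of -0.51, where 17.9% of all genes were called lower. Without replicates 3 and 4, 12 of 25 were called higher and 0 lower, with a median of 1.64, where 14.7% of all genes were called higher. Without fat-1 PF replicates 2 and 4, 0 of 27 were called in either direction with edgeR, where 13.9% of all genes were. Of the 27, 1 had an unadjusted p under 0.05. The sign of this list thus turned with the libraries included.

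Of 15 tested genes of cytotoxic granules and effector functions beyond the members, 0 were called with edgeR, where 37.4% of all genes were, and 3 had an unadjusted p under 0.05, where 47.9% of all genes did. The median was -0.51. Prf1, the perforin that lets granzymes enter a target cell, stood between 0.41 and 1.47 CPM with PF and between 0.0892 and 3.51 CPM with EtOH (0.48, SE 0.74). Without replicate 5, 7 of the 15 were called, all lower, with a median of -0.91, where 17.9% of all genes were called lower. Without replicates 3 and 4, 0 of the 15 were called, where 30.8% of all genes were. Of the 15, 0 had an unadjusted p under 0.05, and the median was -0.05. Of 17 tested genes of CD4 T cell subsets, 1 was called, Lef1, a transcription factor of naive T cells (3.94, SE 1.45, edgeR adjusted p = 0.0453). Its 18 CPM in replicate 5 stood against 0 to 1.11 CPM elsewhere, and without this library it did not pass the filter on low counts and was not tested. The median of this list was 1.47, and -0.20 without replicate 5. In that fit 2 of 15 genes were called, both lower, where 17.9% of all genes were called lower.

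The next list held genes for the homing and survival of intraepithelial lymphocytes, some expressed by the epithelium and others by the lymphocytes themselves. Of 24 tested genes of homing, survival and epithelial partners, 6 were called lower and 1 higher in fat-1 EtOH mice, with a median of -0.32, where 18.8% of all genes were called lower and 18.7% higher. Btnl2 fell most (-1.82, SE 0.34, edgeR adjusted p = 0.00131), from 128, 253, 113 and 252 CPM with PF to between 23.4 and 73.9 CPM with EtOH. Btnl1, a butyrophilin-like protein of enterocytes that gamma delta intraepithelial lymphocytes recognise, fell from 317, 520, 322 and 382 to 193, 230, 148, 191 and 162 CPM (-1.06, SE 0.17, edgeR adjusted p = 0.000576). For both genes the groups did not overlap, replicate 5 lay within the range of its group, and fat-1 PF replicates 2 and 4 were the highest. Btnl4 and Btnl6, of the same family and list, were not called. Averaged over both genotypes they changed by 0.05 (SE 0.11) and -0.33 (SE 0.19) with EtOH, so that the fall was not shared by all 4 Btnl genes listed.

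Cxcl16, the ligand of the lymphocyte receptor CXCR6, fell from 56.4, 97.0, 71.3 and 162 CPM with PF to between 9.72 and 50 CPM with EtOH (-1.59, SE 0.44, edgeR adjusted p = 0.0124). Jaml, an adhesion molecule of epithelial gamma delta T cells and other leukocytes, changed by -1.55 (SE 0.43, edgeR adjusted p = 0.012), with 24.5, 43.2, 15.3 and 41.1 CPM in the PF mice. In both genes fat-1 PF replicates 2 and 4 were again the highest. Il15, the cytokine that binds the receptor of which Il2rb is part, had 22.8, 56.1, 32.4 and 43.9 CPM with PF and 14.9, 30.4, 15.2, 18.6 and 17.0 CPM with EtOH (-1.01, SE 0.25, edgeR adjusted p = 0.0064). Only replicate 2 of the EtOH mice reached into the PF range. The sixth was H2-T3 (-1.04, SE 0.17), which encodes the TL antigen that binds CD8 alpha homodimers and was named after its values were seen, as was Stat5b, the gene called higher (0.51, SE 0.15). Cxcl16 and Il15 were named by the study from these samples, so that their falls are no independent evidence. Itgb7, the beta chain of CD103 (0.61, SE 0.66), Cdh1, its ligand E-cadherin (0.22, SE 0.12), Il15ra (-0.35, SE 0.19) and Il2rg (0.67, SE 0.70) were not called.

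Without fat-1 EtOH replicates 3, 4 and 5, 4 of the 24 genes were called lower and 0 higher, where 17.9% of all genes were called in either direction, so that this count is near the share of all genes. Btnl2 (-1.32, SE 0.31), Btnl1 (-0.83, SE 0.21) and H2-T3 (-0.82, SE 0.21) were among them, while Cxcl16 (-0.98, SE 0.36), Jaml (-1.01, SE 0.34) and Il15 (-0.73, SE 0.33) were not. Without fat-1 PF replicates 2 and 4, 3 of the 24 genes were called lower and 1 higher, where 13.9% of all genes were called. Those lower were Btnl1 (-0.79, SE 0.18), Btnl2 (-1.19, SE 0.36) and H2-T3 (-0.69, SE 0.17), while Cxcl16 (-0.98, SE 0.51), Jaml (-0.90, SE 0.50) and Il15 (-0.51, SE 0.26) were not called. In WT mice 0 genes of this list were called, where 0.0796% of all genes were. Btnl1 (-0.59, SE 0.20, edgeR adjusted p = 0.221), H2-T3 (-0.55, SE 0.20) and Btnl2 (-0.77, SE 0.39) had negative log2 fold changes. Btnl1 stood at 217 to 336 CPM in WT PF and 193 to 200 CPM in WT EtOH mice. The groups of WT mice did not overlap for 8 of the 24 genes, 7 of them lower with EtOH and among these Btnl1, Btnl2, H2-T3, Cxcl16 and Jaml, where 24.3% of all genes had no overlap. The proximal small intestine markers moved with these genes. In fat-1 mice 12 of 14 were called lower with EtOH and 0 higher, where 18.8% of all genes were called lower, and 8 of 8 smooth muscle markers were called higher, where 18.7% of all genes were. The part of either in the fall of the partner genes was not tested.

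**Figure D5:**
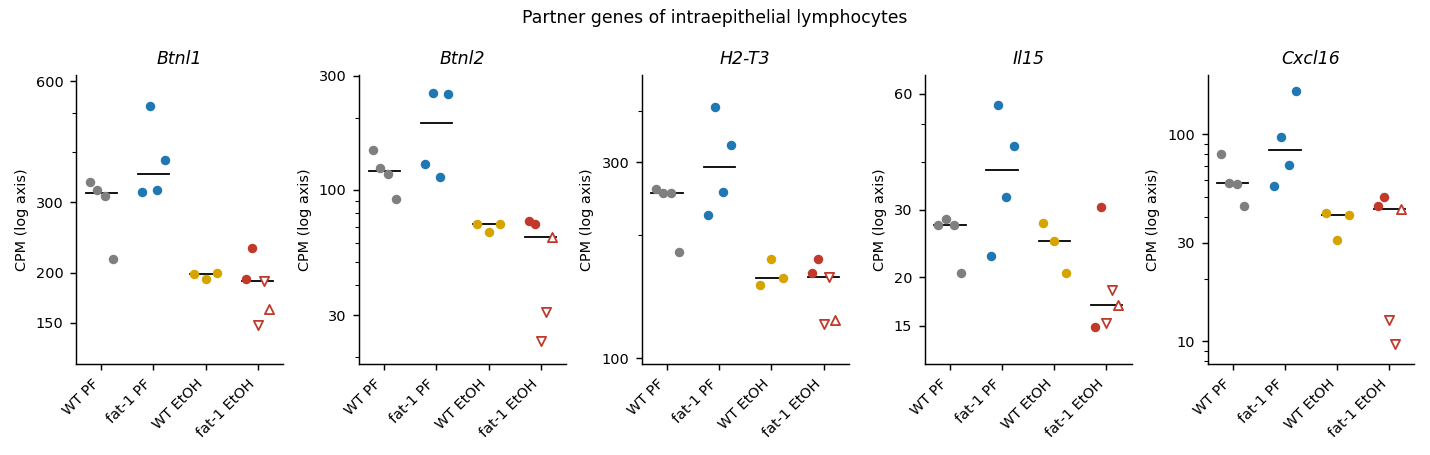
CPM (log axis) of 5 partner genes of intraepithelial lymphocytes in each library, by group, with the group median as a line. Open triangles are fat-1 EtOH replicates 3 and 4 (pointing down) and 5 (pointing up). All 5 fat-1 EtOH mice lie below the fat-1 PF mice for Btnl1, Btnl2, H2-T3 and Cxcl16, and 4 of 5 do for Il15.

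The members varied together within groups. Over the 16 libraries, after subtraction of the group mean of log2 CPM, Pearson's r with the mean of the 3 CD3 genes was 0.975 for Cd8a, 0.965 for Cd4, 0.911 for Il2rb, 0.878 for Cd8b1, 0.850 for Itgae, 0.814 for Gzma and 0.729 for Gzmb. Without the 2 libraries farthest from the median, fat-1 EtOH replicates 3 and 5, r was 0.917 for Gzma and 0.907 for Gzmb, above the 0.883 of Cd8a, and 0.566 for Cd8b1. It was 0.848 for Cd4, 0.824 for Itgae and 0.732 for Il2rb, each lower than over all 16. The granzymes thus stood closer to CD3 in the other 14 libraries than in all 16. The genes most like CD3 outside the members were Rasgrp1 (0.971), Sla2 (0.967), Zap70 (0.964), H2-Q7 (0.959) and Serpina3g (0.958), of which Rasgrp1, Sla2 and Zap70 act in T cell receptor signalling. Without the same 2 libraries their r was 0.810 to 0.872, and they ranked 8, 5, 18, 47 and 28 in that order, so that other genes were then more like CD3. The libraries share their scaling and tissue makeup, and these values are a description.

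Markers of other cells that can hold a member were read beside them. In fat-1 EtOH replicate 5 the sum of 7 dendritic cell markers was 68.2 CPM, against 6.78 to 38.5 CPM in the other libraries, and that of 11 macrophage markers was 808 CPM, against 149 to 388 CPM. Of the NK cell markers, Klrb1c had up to 33 counts in a library and was found in all 16, while Ncr1 had at most 12 and Klra8 at most 6 counts. Of the mast cell proteases, Mcpt1 and Mcpt2 had up to 48 and 16 counts and were found in all 16 libraries, while Mcpt4 and Cma1 had at most 2 and 1 counts. The sum of 7 mast cell markers was 14 to 22.8 CPM in PF mice and 27.0 to 92.7 CPM in EtOH mice, and 1 gene carried this difference. Kit, a receptor that other cells of the gut also express, had 7.58 to 20.1 CPM with PF and 22.5 to 87.1 CPM with EtOH, while the other 6 markers together had 1.86 to 6.46 and 1.87 to 5.58 CPM. The sum of 8 NK cell and innate lymphoid markers was 54.6 to 99.4 CPM in PF mice and 29.2 to 66.6 CPM in EtOH mice. Of this, 90% to 98.3% came from Id2, a transcriptional regulator that is not specific to these cells, and the other 7 markers together had 1.24 to 3 CPM with PF and 1.28 to 6.67 CPM with EtOH. The sum of 10 epithelial markers was 10500 CPM in each of replicates 3 and 4 and 12300 CPM in replicate 5, the lowest of the 16 libraries, which had 13800 to 19200 CPM otherwise. Their part in the values of the members was not tested. Of the windows of 75 bases in the members' transcripts, 0 were shared with another gene except for 1.14% of those of Cd8b1. Haspin lies within Itgae on the other strand and shares 0 exon bases with it. An antisense gene, Gm48719, shares 135 exon bases with Cd3e, and the reads of these can be told apart only if strand was used in counting.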

How the data were processed

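Gene expression in the ileum of 16 males was measured by stranded RNA-seq after poly(A) purification, with 1 library for each animal. The authors aligned reads with tophat2 to mm10 and deposited raw htseq counts per Ensembl gene, without normalization. Settings of this counting, its use of strand among them, are not given in the sources used here. Symbols, positions and exon lengths were taken from GENCODE M21 (GRCm38), in which 26 of the 21965 genes are absent. Groups were taken from the sample titles, and no column of sample values was left unused. Where the labels only name mice as separate samples, p-values measure the spread between these mice.

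The counts were analysed in R 4.3.3 with edgeR 4.0.16 (filterByExpr, TMM, robust quasi-likelihood, 1 mean per group in a fit of all 16 libraries), in place of the study's cuffdiff2, which needs aligned reads. P-values were adjusted by Benjamini-Hochberg over 13811 genes and called at 0.05. The standard errors are those of the fit. The 6 comparisons were the diets within each genotype, the genotypes within each diet, the diets averaged over genotypes, and the interaction. Ratios were compared by exact two-sided permutation of log2 values with 0.5 CPM added, adjusted over 24 tests (scipy 1.17.1, python 3.11.15). Scripts were tested on simulated data. Figures were drawn with matplotlib 3.10.9.

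The members, the pathway lists and the tests were chosen with earlier results of these data known. Named beside the members were, per pathway list, up to 4 genes with the largest change among those called in fat-1 EtOH against fat-1 PF mice, the 5 genes most like CD3 over the 16 libraries, known partners of the members, and Gzma, Il15 and Cxcl16, which the study named. Alternatives were DESeq2 1.42.0 and its size factors, limma voom (limma 3.58.1), upper-quartile scaling, no filter, the 2 groups alone, the replicate block, 2 CPM or none added in ratios, and mice left out. The depth was 8422645 to 11438539 counts per library, and 3 counts, the floor of detection used, were 0.246 to 0.421 CPM, a limit for counting error only. Immunoglobulin and T cell receptor genes were not analysed here.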

Additional observations from a re-analysis of the deposited data

Results flagged for a closer look

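Sets of values, each of a member or a ratio within a group of mice, were examined for a sample far from the others. Of 48 sets, 8 held one. Chance gives about 1 in 20 for independent sets, which these are not, as they come from the same mice. The 8 are not independent, since 7 of them are values of the same library. In the fat-1 EtOH group, replicate 5 stood above the other 4 mice by most of the group's range for Cd3d (21 CPM), Cd3e (21.8 CPM), Cd3g (27.0 CPM), Cd4 (33.8 CPM), Cd8a (37.4 CPM), Cd8b1 (15.7 CPM) and Il2rb (26.9 CPM). It did not for Gzma, Gzmb and Itgae. The same library had 932 CPM over the B cell markers, 68.2 CPM over the dendritic cell markers and 808 CPM over the macrophage markers, each the highest of the 16, and the part of these in its T cell genes was not tested.

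In WT PF mice, replicate 4 stood below the other 3 in the log2 ratio of Gzma to CD3, at 1.19 against 1.58 to 1.65.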

How the results depend on the processing

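The members' main calls rested on few mice. In fat-1 mice the count of members called with EtOH was 2 in the edgeR fit, 1 with limma voom (26.8% of all genes), 0 in a fit of the 2 groups alone (23.2%), 6 with the replicate block (34.4%), 0 without fat-1 EtOH replicates 3, 4 and 5, 0 without fat-1 PF replicates 2 and 4, and 1 to 7 with 1 mouse left out. For the averaged diet effect it was 2, 4 with the replicate block (35% of all genes), 0 without fat-1 PF replicates 2 and 4, and 0 to 5 with 1 mouse left out. In WT mice it was 0, and 1 (Gzmb) with limma voom and in a fit of the 2 groups alone. All genes called in WT mice numbered 11 in the main fit, 2853 with limma voom, 1103 in a fit of the 2 groups alone and 257 with DESeq2, and those between PF genotypes 0, and 189 with DESeq2. In fat-1 mice they numbered 5170, 3086 in a fit of the 2 groups alone, 2458 without fat-1 EtOH replicates 3, 4 and 5 and 1965 without fat-1 PF replicates 2 and 4. Between genotypes and in the interaction 0 members were called in every fit run, and 0 of the ratios passed under every alternative run. The replicate number is not given as a pairing, and deviations from the group mean correlated by -0.0225 on average over 21 pairs of mice that share a number and by 0.00703 over 74 other pairs. With the replicate block, the fit also matches fat-1 EtOH replicate 5 exactly, as the only mouse of that number, and so in effect drops it. This fit did not call Gzmb in fat-1 mice (-1.63). Signs that turned belonged to changes that were not called in the main edgeR fit, and the causes were not tested. With limma voom, the sign turned between PF genotypes for Cd4 (0.02), with EtOH in WT mice for Cd3d (-0.04) and Itgae (-0.22), with EtOH in fat-1 mice for Cd3d (-0.35), Cd3e (-0.33) and Cd4 (-0.14), between EtOH genotypes for Cd3g (-0.13), in the averaged diet effect for Cd3d (-0.19) and Cd4 (-0.18), in the interaction for Cd3d (-0.31), Cd3g (-0.06) and Il2rb (-0.07). With upper-quartile normalization, the sign turned between PF genotypes for Il2rb (-0.01), with EtOH in WT mice for Cd8a (0.02), with EtOH in fat-1 mice for Il2rb (0.09). With the replicate block, the sign turned with EtOH in WT mice for Itgae (-0.02), with EtOH in fat-1 mice for Cd3d (-0.95), Cd3e (-1.02), Cd4 (-0.93) and Cd8b1 (-0.31), between EtOH genotypes for Cd3d (-0.72), Cd3e (-0.80), Cd3g (-0.98), Cd4 (-0.75), Cd8b1 (-0.93) and Il2rb (-0.48), in the averaged diet effect for Cd3d (-0.37) and Cd4 (-0.56), in the interaction for Cd3d (-1.15), Cd3e (-0.65), Cd3g (-0.91), Cd4 (-0.74), Cd8b1 (-0.86) and Il2rb (-0.53). Without fat-1 EtOH replicates 3, 4 and 5, the sign turned with EtOH in fat-1 mice for Cd3d (-0.52), Cd3e (-0.31) and Cd4 (-0.12), between EtOH genotypes for Cd3d (-0.32), Cd3e (-0.16), Cd3g (-0.52), Cd4 (-0.05), Cd8b1 (-0.50), Gzmb (0.10), Il2rb (-0.06) and Gzmb/CD3 (0.28), in the averaged diet effect for Cd3d (-0.16) and Cd4 (-0.11), in the interaction for Cd3d (-0.72), Cd3g (-0.42), Cd4 (-0.01), Cd8b1 (-0.46), Gzmb (0.05) and Il2rb (-0.09). Without fat-1 EtOH replicates 3 and 4, the sign turned with EtOH in fat-1 mice for Cd3g (0.41), Cd8a (0.23), Il2rb (0.47) and Il2rb/CD3 (-0.05), between EtOH genotypes for Cd8a (0.29) and Gzmb (0.04), in the averaged diet effect for Cd3e (0.20), Cd3g (0.07), Cd8a (0.11) and Il2rb (0.03), in the interaction for Cd8a (0.25). Without fat-1 PF replicates 2 and 4, the sign turned between PF genotypes for Cd8a (-0.22), Cd8b1 (0.27), Gzma (-0.14), Gzmb (-0.31), Il2rb (-0.50), Cd8b1/Cd8a (0.36), Gzmb/CD3 (-0.07), Itgae/CD3 (0.05) and Il2rb/CD3 (-0.17), with EtOH in fat-1 mice for Cd3g (0.15) and Il2rb (0.50), in the averaged diet effect for Cd3e (0.02) and Il2rb (0.04). With 1 mouse left out, the signs that turned had these ranges on the log2 scale: between PF genotypes Cd3g -0.20 to 0.05, Cd4 -0.15 to 0.12, Cd8a -0.09 to 0.16, Cd8b1 -0.35 to 0.26, Gzmb -0.11 to 0.29, Itgae -0.19 to 0.04, Il2rb -0.13 to 0.21, Cd8b1/Cd8a -0.32 to 0.13, Il2rb/CD3 -0.05 to 0.17, Gzmb/CD3 -0.05 to 0.18 and Itgae/CD3 -0.28 to 0.06, with EtOH in WT mice Cd3d -0.07 to 0.46, Cd4 -0.19 to 0.02, Cd8a -0.19 to 0.16, Itgae -0.26 to 0.27, Cd4/Cd8a -0.12 to 0.04 and Il2rb/CD3 -0.47 to 0.08, with EtOH in fat-1 mice Cd3d -0.94 to 0.70, Cd3e -0.95 to 0.39, Cd3g -1.16 to 0.09, Cd4 -0.83 to 0.89, Cd8b1 -0.26 to 2.83, Il2rb -0.91 to 0.18, Il2rb/CD3 -0.02 to 0.25 and Itgae/CD3 -0.45 to 0.01, between EtOH genotypes Cd3d -0.72 to 0.95, Cd3e -0.78 to 0.61, Cd3g -0.98 to 0.26, Cd4 -0.75 to 0.97, Cd8b1 -1.09 to 2.16 and Il2rb -0.45 to 0.64, in the averaged diet effect Cd3d -0.37 to 0.46, Cd3e -0.65 to 0.02 and Cd4 -0.47 to 0.39, in the interaction Cd3d -1.15 to 0.51, Cd3e -0.59 to 0.79, Cd3g -0.91 to 0.34, Cd4 -0.73 to 0.99, Cd8b1 -1.06 to 2.18 and Il2rb -0.50 to 0.59. Leaving out fat-1 EtOH replicates 3, 4 and 5 together was chosen after seeing the data, and it leaves 2 mice in that group. Leaving out fat-1 PF replicates 2 and 4 together and ratios with no CPM added were also chosen after seeing the data. Depth limits Cd8b1 most, with 1 to 20 counts outside fat-1 EtOH replicate 5.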
